A study of Mus musculus with 32 samples.

Results

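The 43 genes described here encode the machinery that copies DNA in S phase, and they were chosen by symbol: every gene of the deposited table whose symbol is in a fixed list of replication proteins, their nucleotide suppliers, 3 chromatin-copying factors and cyclin E. All 43 were found among the 55385 gene IDs of the table, each with 1 ID, and all 43 passed the filter on low counts that left 28597 genes for testing. The RNA came from microglia, the resident macrophages of the brain, taken from the cerebral cortex of stab-wounded adult C57BL/6 mice. These animals were Cx3cr1CreER heterozygotes, in which the Cx3cr1 promoter drives a Cre recombinase that acts after tamoxifen. They were given tamoxifen at 180 mg/kg for 5 days from an age of 8 to 10 weeks so that microglia carried the yellow fluorescent protein EYFP, and EYFP-positive cells were sorted. Injured groups came from the wounded cortex and non-injured groups, called sham in the deposited names, from the matching place in the opposite hemisphere, at days 1, 4, 7 and 14, in females and in males. The non-injured side is therefore not a sham operation. Both sides carry the same Cre allele and tamoxifen treatment. Other cells that use the Cx3cr1 promoter can carry the reporter too. The labels give neither the interval between tamoxifen and wound nor the number of mice per library.

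A cell that enters S phase first loads the MCM helicase onto replication origins with the help of Cdc6 and Cdt1, and then starts it with Cdc45 and the GINS complex. Polymerase alpha with its primase begins each new strand, the clamp PCNA, set on DNA by the RFC complex, holds polymerases delta and epsilon on the template, and Fen1 and Lig1 finish the joins between fragments. Ribonucleotide reductase, thymidylate synthase and thymidine kinase supply the nucleotides, while cyclin E with its kinase drives the step from G1 into S and many of these genes are known targets of E2F factors. Microglia of the healthy adult cortex divide rarely, and they are known to multiply after brain injury.

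The 32 deposited count columns were 2 for each day, sex and side. The columns of a group differed by little more than counting noise (median chi-square per gene 0.476 to 0.639, against 0.455 for counting noise alone), so they were summed to 16 libraries of 20863982 to 55378788 counts. The series' design text speaks of 2 biological replicates. It does not say whether these are the 2 columns of a group, so a doubt remains over the sample size, and with the columns taken as separate samples edgeR called 33 of the 43 genes at day 1, 40 at day 4, 38 at day 7, 21 at day 14 and 42 over the mean, where the summed libraries gave the 0, 6, 0, 0 and 26 reported here. The share of all genes called with separate columns was not worked out, so these counts are not read as a result about the 43 genes. Each injured library was set against the non-injured library of its own day and sex, which gave 8 pairs. The tests thus measure the spread between the female and the male pair of a day. Levels are counts per 1000000 counts (CPM), scaled with TMM factors. The 12 microglia markers summed to 11810 to 74110 CPM on the non-injured and 10630 to 41860 CPM on the injured side, with the wound higher in 1 of the 8 pairs. The 10 monocyte markers summed to 20.1 to 175 CPM on the non-injured and 183 to 2122 CPM on the injured side, and the 8 neutrophil markers to 0 to 7.14 and 2.51 to 172 CPM, both lists with the wound higher in 8 of 8 pairs. The 7 markers of border-associated macrophages summed to 19.9 to 655 CPM on the non-injured and 90.6 to 3458 CPM on the injured side (higher in 7 of 8 pairs), and the 5 B cell markers to 4.26 to 108 and 6.74 to 219 CPM (higher in 6). The macrophage list was split. The highest non-injured and injured levels were 376 and 2184 CPM in Ms4a7, 151 and 826 in F13a1, 36.5 and 382 in Pf4 and 75.4 and 96.1 in Cbr2. They were 313.5 and 199 CPM in Mrc1, 52.4 and 23.1 in Cd163 and 41.8 and 5.92 in Lyve1. The 7 neuron markers summed to 48.6 to 2734 and 8.49 to 141 CPM with the wound higher in 0 of the 8 pairs. No marker of these 6 lists was at 0 in every library, although the neutrophil-defining Ly6g stayed below 1 CPM and was at 0 in 7 libraries. The part that such cells play in the results below was not tested. The day 14 female libraries stood apart in content. They held 14777 and 14737 detected genes against 18732 to 40975 in the others, and 8 of the 43 replication genes had 0 counts in the non-injured and 4 in the injured library, against 0 in each of the other 14.

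Replication genes were higher in the microglial RNA of the wounded side. Averaged over the 4 days, 26 of the 43 rose and 0 fell (edgeR quasi-likelihood test, Benjamini-Hochberg adjusted p under 0.05), where 7.76% of all genes tested were called higher and 7.96% lower. All 43 fitted values lay above 0, with a median log2 ratio of 1.13 (range 0.44 to 3.12), beside a median of -0.32 over all genes tested. In these bulk libraries, more cells in S phase and more RNA of these genes per cell cannot be told apart. The summed level of the 43 genes went from 1168 to 2572 CPM in females and from 790.6 to 1534 CPM in males at day 1. It went from 555.5 to 2703 and from 533 to 1156 CPM at day 4, and from 565 to 1670 and from 740.4 to 1903 CPM at day 7. At day 14 it went from 728.5 to 849 CPM in females and from 443 to 553 CPM in males. The injured library had the higher sum in 8 of 8 pairs, by 4.87 times in the day 4 females and by 1.16 to 2.96 times in the other pairs. The injured levels of day 14 lay below every injured level of the earlier days. TPM is the authors' unit that also corrects for length and takes no TMM factor. Summed in TPM, the ratio was 1.53 and 1.89 in the day 1 females and males and 2.52 and 2.41 at day 4. It was 1.20 and 1.31 at day 7 and 0.877 and 1.03 at day 14. In TPM both ratios of day 1 thus lay above those of day 7, while in CPM they lay below. The wound was then lower in the day 14 females, and the day 4 females no longer stood far above the males.

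**Figure D1:**
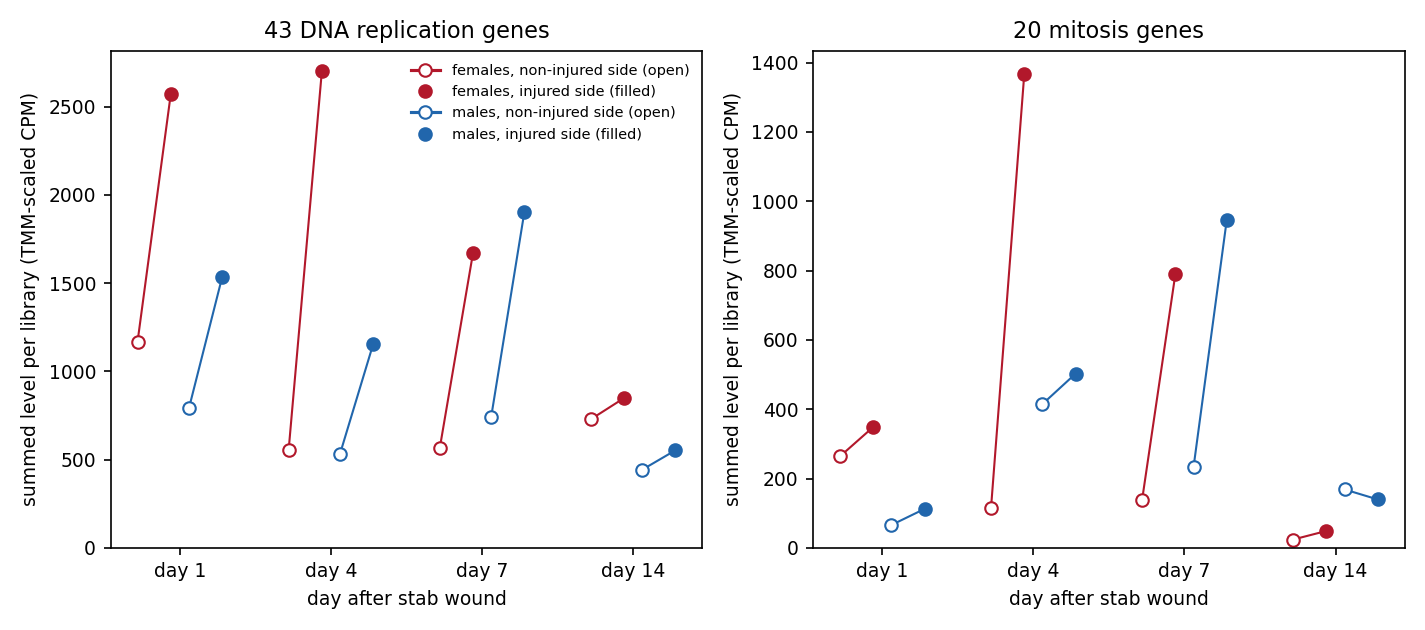
Summed level per library (y axis, TMM-scaled CPM, from 0) of the 43 replication genes (left) and of 20 mitosis genes (right) by day after the wound (x axis). Each line joins the non-injured (open) and injured (filled) library of 1 pair, females in red and males in blue; the replication genes are higher in CPM on the injured side in all 8 pairs, most in the day 4 females; in TPM the day 14 females are lower (0.877 times).

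The number of members called over the mean changed with single pairs and with the unit. For these settings the share of all genes called was not worked out, so whether members lose calls faster than other genes is not known. With the day 1 females left out 7 members were called over the mean, and with the day 1 males left out 15. The counts were 13 and 12 when the day 7 females or the day 7 males were dropped, and 32 when the day 4 males were. All 4 day 14 libraries left out together gave 35 calls. In TPM, limma called 11 members, and 40 of 43 values lay above 0 with a median of 0.55, beside -0.17 over all genes. In both units all 43 members lay above the median of all genes tested. Mcm6, Cdc45, Gins2, Pcna and Chaf1b were called in 17 of 17 alternative settings, and the fewest were 4 for Rpa3, 5 for Chaf1a, 6 for Fen1 and 8 for Rpa1.

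At single days fewer genes passed. Shares of all genes are given only for the edgeR calls on all 16 libraries. Counts with pairs left out, at an unadjusted p, by DESeq2 or by limma stand without them. At day 4, 6 of 43 rose (Mcm6, Cdc6, Pcna, Rrm1, Tk1 and Chaf1b) against 1.52% of all genes tested, all 43 values lay above 0 and the median log2 ratio was 2.10, beside -0.20 over all genes. With either day 4 pair left out, day 4 rests on 1 pair. Whether the 6 calls hold then cannot be decided, and only ratios are given. Without the day 4 males the log2 ratios of the 6 genes ran from 2.41 (Pcna) to 5.46 (Cdc6). Without the day 4 females those of the named genes other than Pcna ran from 1.75 (Rrm1) to 2.58 (Cdc6). The count of day 4 calls was 0 when either pair of day 1 or of day 7, which also serve to estimate the spread, was left out. DESeq2 called 21 at day 4 and limma on TPM 5, with a median in TPM of 1.39 beside -0.09. At day 1 edgeR called 0 of 43 (0.472% of all genes called higher), with 15 at an unadjusted p under 0.05, 8 called by DESeq2 and 1 by limma. The median was 1.08 beside -0.05, and in TPM 0.87 beside -0.10, with 40 of 43 values above 0. At day 7 edgeR called 0 (0.318%), with 29 at an unadjusted p under 0.05, 6 called by DESeq2 and 0 by limma. The median was 1.61 beside -0.84, and in TPM 0.33 beside -0.45, with 34 of 43 values above 0. At day 14 edgeR called 0 (0.0455%), with 10 at an unadjusted p under 0.05, 14 called by DESeq2 (12 higher, 2 lower) and 1 by limma. The median was 0.43 beside 0, and in TPM 0.09 beside -0.04. Which of days 1 and 7 had the larger median thus depended on the unit.

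Counted by pairs, 40 of the 43 genes were higher at the wound in both pairs of day 1, as were 20.1% of all genes tested. In both pairs of day 4 the count was 40 (25% of all genes), in both pairs of day 7 it was 41 (26.5%) and in both pairs of day 14 it was 16 (14.4%). A gene at 0 on both sides counts as not higher, which lowers the shares over all genes. In the day 14 females, with few detected genes, 27.2% of all genes tested were higher, against 33.7% to 49.1% in the other pairs. In all 8 pairs 14 genes were higher (5.11%), and in the 7 pairs other than the day 14 females 23 were (7.68%). The fewest pairs for any member were 5, in Gins3, Prim2 and Pold1.

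**Figure D2:**
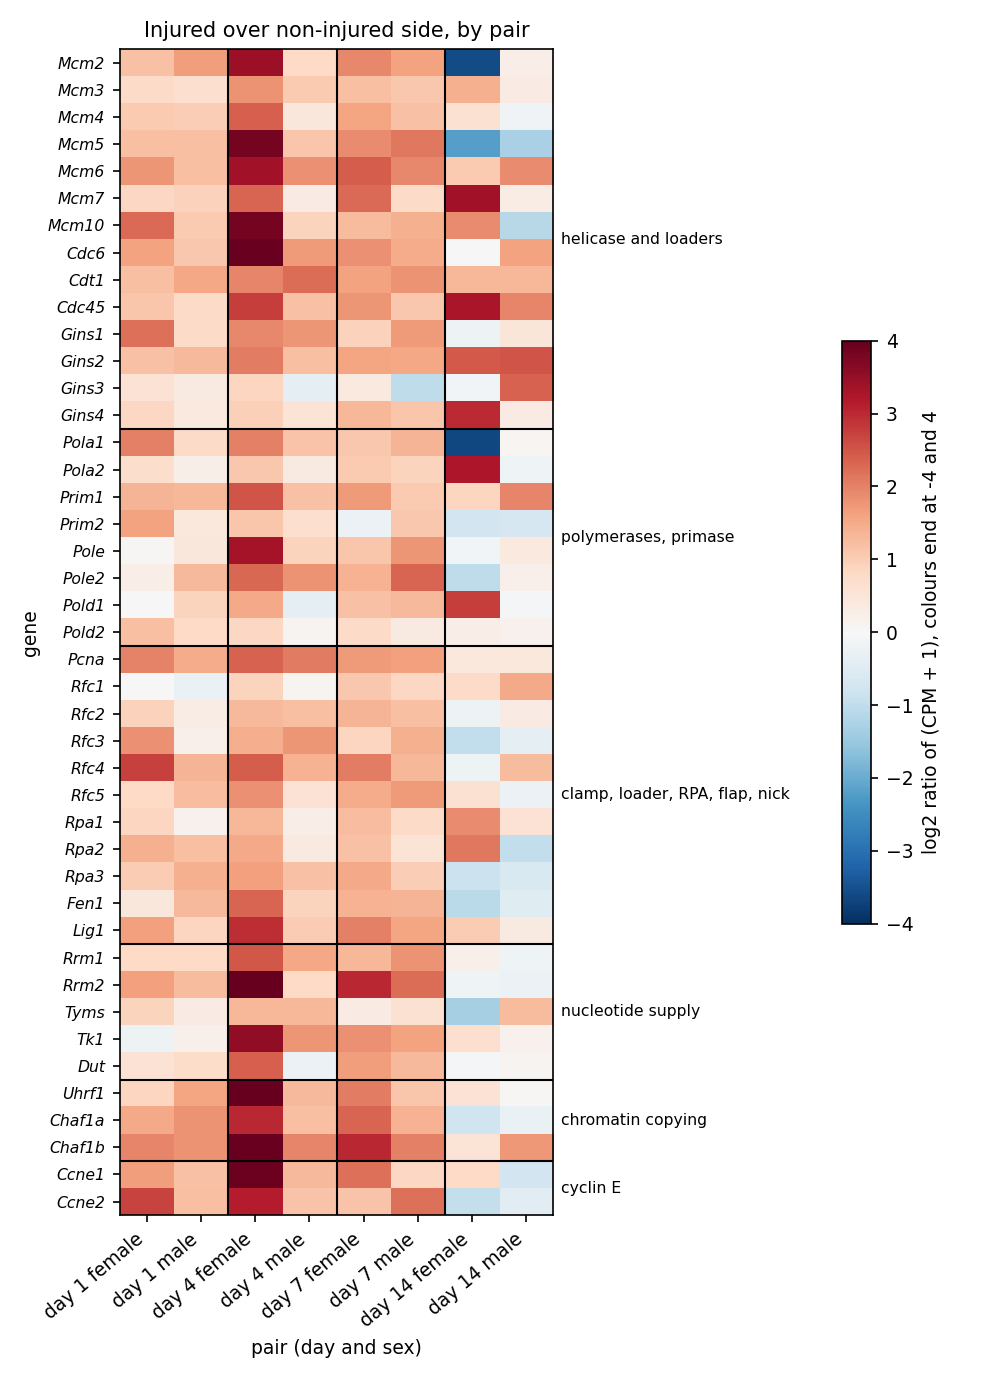
Log2 ratio of the injured over the non-injured library (colour, computed on CPM + 1, colours ending at -4 and 4) for each of the 43 genes (y axis, grouped by role) in each of the 8 pairs (x axis, day and sex). The day 4 female column holds the darkest red, up to 5.22 for Rrm2, and the day 14 columns mix red and blue.

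Promoter windows are shown for 6 members that rose over the mean of the 4 days, since these genes moved together and E2F factors are known to act on many of them. RefSeq sequences of GRCm38.p6 reached 35 of the 43 members (41 windows of 250 bases before to 50 after the start). The windows were searched on both strands for 4 spellings of an E2F motif, TTTCCCGC, TTTCGCGC, TTTGCCGC and TTTGGCGC, which can overlap each other. They were found in 13 of the 35 members (37.1%), against 2.6% of all 27025 genes with a window and 3.54% of the 16400 that were tested here. Below are the 250 bases before the start of Mcm6 (chr1:128359706-128359955, minus strand), Cdc6 (chr11:98907901-98908150, plus strand) and 1 of the 2 starts of Uhrf1 (chr17:56304063-56304312, plus strand), with the matches in capitals. Pcna (chr2:132253181-132253430, minus strand), Rrm1 (chr7:102441445-102441694, plus strand) and Chaf1b (chr16:93883651-93883900, plus strand) hold no match and are shown beside them. Each sequence runs 5′ to 3′ along the gene's strand.
Mcm6: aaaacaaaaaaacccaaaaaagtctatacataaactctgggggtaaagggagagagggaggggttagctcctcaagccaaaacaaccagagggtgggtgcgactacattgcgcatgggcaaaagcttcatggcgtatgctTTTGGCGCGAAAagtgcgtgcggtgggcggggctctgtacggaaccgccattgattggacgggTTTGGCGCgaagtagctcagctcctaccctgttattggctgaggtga
Cdc6: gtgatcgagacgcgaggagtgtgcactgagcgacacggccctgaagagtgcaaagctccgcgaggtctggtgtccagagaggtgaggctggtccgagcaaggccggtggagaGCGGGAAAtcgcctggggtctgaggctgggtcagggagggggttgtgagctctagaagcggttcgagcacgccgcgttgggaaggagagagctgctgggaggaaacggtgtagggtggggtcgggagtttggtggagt
Uhrf1: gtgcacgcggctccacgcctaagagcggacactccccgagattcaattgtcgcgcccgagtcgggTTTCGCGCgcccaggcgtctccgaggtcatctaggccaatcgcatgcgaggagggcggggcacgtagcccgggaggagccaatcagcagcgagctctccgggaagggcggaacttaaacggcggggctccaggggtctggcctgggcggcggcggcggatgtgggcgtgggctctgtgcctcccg
Pcna: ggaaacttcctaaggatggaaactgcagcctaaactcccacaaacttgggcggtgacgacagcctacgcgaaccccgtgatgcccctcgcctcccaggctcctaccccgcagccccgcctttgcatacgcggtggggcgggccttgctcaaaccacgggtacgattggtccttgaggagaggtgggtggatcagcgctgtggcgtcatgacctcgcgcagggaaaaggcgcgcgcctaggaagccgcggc
Rrm1: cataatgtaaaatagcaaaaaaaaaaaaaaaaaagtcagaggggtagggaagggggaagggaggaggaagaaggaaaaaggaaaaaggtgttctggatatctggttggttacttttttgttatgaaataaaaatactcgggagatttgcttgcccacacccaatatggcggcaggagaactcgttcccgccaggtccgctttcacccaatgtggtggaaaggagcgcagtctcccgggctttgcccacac
Chaf1b: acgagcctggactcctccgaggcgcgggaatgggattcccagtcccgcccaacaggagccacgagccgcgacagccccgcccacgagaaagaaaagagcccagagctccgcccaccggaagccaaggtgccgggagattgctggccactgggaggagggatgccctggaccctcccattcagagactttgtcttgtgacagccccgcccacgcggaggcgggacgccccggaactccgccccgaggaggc
In Mcm6 the first match begins 110 bases before the start and a second, on the other strand, overlaps it, with another 47 bases before the start. The match of Cdc6 begins at base 138 and that of Uhrf1 at base 185 before the start. Of the 13 members with a match 7 rose over the mean, with a median log2 ratio of 1.41, and of the 22 without 13 rose, with a median of 1.09. The box CCAAT was found in 21 of the 35 members (60%), against 41.1% of all genes. A match here is a run of letters and was not tied to binding by any data of this series.

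Among the 14 genes of the helicase and its loaders, 9 rose over the mean of the 4 days, with a median log2 ratio of 1.41, and 2, Mcm6 and Cdc6, rose at day 4. Mcm6, a subunit of the ring-shaped MCM helicase, went from 70.1 to 238 CPM in the day 1 females, from 47.7 to 111 in the males, from 20.7 to 221 in the day 4 females and from 30.9 to 113 in the males. It went from 27.1 to 150.5 CPM in the day 7 females, from 34.3 to 133 in the males, from 8.50 to 18.7 in the day 14 females and from 13.8 to 53.9 in the males. Every pair was higher at the wound, and every injured library of days 1, 4 and 7 lay above every non-injured library of the study. The log2 ratio was 1.98 ± 0.24 (SE, 8 pairs) over the mean (edgeR, adjusted p = 0.000982) and 2.65 ± 0.48 at day 4 (adjusted p = 0.0341), with the mean called in 17 of 17 alternative settings. Mcm3, the subunit with the most counts, had 18.2 to 124 CPM (median 56.1) on the non-injured and 38.9 to 268.5 CPM (median 125) on the injured side. The ranges overlap, while within each of the 8 pairs the injured library was higher, and the mean ratio was 1.06 ± 0.20 (adjusted p = 0.00696). Mcm4 rose as well (1.06 ± 0.25, adjusted p = 0.0211), whereas Mcm2 (1.05 ± 0.50), Mcm5 (1.01 ± 0.32) and Mcm7 (1.41 ± 0.42) did not pass. At day 14, Mcm2 had 10.9 CPM on the non-injured side of the day 14 females and 0 on the injured side, and Mcm5 was lower at the wound in both day 14 pairs, at 15.3 against 2.55 and 23.7 against 9.11 CPM. With the day 14 libraries left out Mcm2 (1.76, adjusted p = 0.0137), Mcm5 (1.89, 0.0099), Mcm7 (1.21, 0.0491) and Mcm10, an initiation factor (2.16, 0.0169), were called. With only the day 4 male pair left out Mcm2 (1.47, adjusted p = 0.0266), Mcm5 (1.37, 0.00392), Mcm7 (1.58, 0.0135) and Mcm10 (2.28, 0.0182) were called too. Without the day 14 male pair Mcm2 came to -1.49 and was not called, and Mcm7 came to 2.42 (adjusted p = 0.0109).

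Cdc6, which loads the helicase together with Cdt1, went from 12.6 to 40.8 CPM in the day 1 females, from 5.47 to 12.7 in the males, from 0.512 to 22.5 in the day 4 females and from 1.01 to 5.54 in the males. It went from 2.48 to 11.4 CPM in the day 7 females, from 3.30 to 10.9 in the males and from 1.261 to 5.92 in the day 14 males, and was at 0 on both sides in the day 14 females. Where it was detected the wound was higher, and the day 4 females held the widest gap. The ratio was 4.23 ± 0.84 at day 4 (edgeR, adjusted p = 0.0443) and 2.47 ± 0.41 over the mean (adjusted p = 0.00483). Leaving out the day 4 females gave 2.58 at day 4 (adjusted p = 0.356). Leaving out the day 14 males, after which day 14 had 0 counts, gave a mean of 1.89 that was not called. Cdt1 rose over the mean (1.83 ± 0.28, adjusted p = 0.00249) and was higher in 8 of 8 pairs, with 3.55 when the day 14 male pair was left out.

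Cdc45, which joins MCM to form the running helicase, went from 5.82 to 13.6 CPM in the day 1 females, from 3.97 to 7.53 in the males, from 1.93 to 18.6 in the day 4 females and from 2.06 to 5.95 in the males. It went from 2.07 to 9.40 CPM in the day 7 females, from 2.84 to 7.18 in the males, from 0 to 8.52 in the day 14 females and from 0.060 to 3.08 in the males. The non-injured libraries of day 14 thus held 0 and 2 counts, and the mean ratio of 3.12 ± 0.44 (edgeR, adjusted p = 0.00226) leans on them: without day 14 it was 1.68 (adjusted p = 0.0135), and without the day 14 males 4.12. Of the GINS complex, Gins1 (1.41 ± 0.31), Gins2 (1.97 ± 0.23) and Gins4 (1.10 ± 0.30) rose, Gins2 in 8 of 8 pairs with an adjusted p of 0.000901 (edgeR). Gins3 did not pass (0.44 ± 0.44) and was higher in 5 pairs.

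The 8 polymerase and primase genes gave fewer calls: 2 rose over the mean, and the median log2 ratio was 0.89. These were Prim1, the catalytic primase subunit (1.68 ± 0.30, edgeR adjusted p = 0.00573), and Pole2, a subunit of polymerase epsilon (1.55 ± 0.37, adjusted p = 0.0223). Pold1, the catalytic subunit of polymerase delta, went from 36.9 to 36.0 CPM in the day 1 females, from 27.3 to 51.8 in the males, from 23.4 to 68.5 in the day 4 females and from 13.1 to 9.70 in the males. It went from 14.8 to 34.4 CPM in the day 7 females, from 3.30 to 9.69 in the males, from 0 to 5.73 in the day 14 females and from 18.9 to 17.8 in the males. Pairs of both directions occurred, and the mean ratio of 0.89 ± 0.42 was not called (adjusted p = 0.197). Pola2, of the polymerase alpha complex, had 0 to 25.7 CPM (median 17.5) on the non-injured and 8.44 to 52.3 CPM (median 27.8) on the injured side, in overlapping ranges, and was not called either (0.89 ± 0.40, adjusted p = 0.182). Without the day 14 male pair both were called, at 3.26 and 3.35, values that then rest for day 14 on a female library with 0 counts of each gene. Pola1 (0.80 ± 0.45), Prim2 (0.44 ± 0.26), Pole (1.37 ± 0.43) and Pold2 (0.60 ± 0.21) did not pass.

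Among the 11 genes of the clamp, its loader, the single-strand binding proteins, the flap nuclease and the ligase, 8 rose over the mean and the median log2 ratio was 0.93. Pcna, the sliding clamp, went from 43.5 to 173 CPM in the day 1 females, from 33.5 to 96.3 in the males, from 25.1 to 132 in the day 4 females and from 38.4 to 164.5 in the males. It went from 26.0 to 85.9 CPM in the day 7 females, from 47.7 to 151 in the males, from 91.9 to 124 in the day 14 females and from 25.6 to 34.8 in the males. Female and male pairs lay close together at each day, and both day 14 pairs gave the same log2 ratio of 0.43, below the 1.49 to 2.35 of the other 6 pairs. Pcna had the smallest adjusted p of the 43 genes, at day 4 (2.25 ± 0.35, edgeR adjusted p = 0.0237) and over the mean (1.54 ± 0.17, adjusted p = 0.000769), and at day 1 it came to 1.76 ± 0.35 (adjusted p = 0.0535). Its mean was called in 17 of 17 alternative settings, with values from 0.91 to 1.82.

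Rfc2, a subunit of the clamp loader, had 33.3 to 169 CPM (median 52.4) on the non-injured and 50.6 to 221 CPM (median 133) on the injured side. It was higher at the wound in 7 of 8 pairs, the exception being the day 14 females at 169 against 147 CPM, and rose over the mean (0.81 ± 0.18, edgeR adjusted p = 0.0139), which limma on TPM did not call (0.24, adjusted p = 0.386). Rfc4 (1.75 ± 0.36) and Rfc5 (1.04 ± 0.24) of the same complex rose, Rfc1 (0.64 ± 0.21) and Rfc3 (0.82 ± 0.26) did not pass. Of the single-strand binding complex Rpa1 (0.91 ± 0.24) and Rpa3 (0.93 ± 0.27) rose and Rpa2 (0.96 ± 0.35) did not pass. Rpa3 lost its call with each of the 8 pairs left out. Lig1, the replicative ligase, rose (1.54 ± 0.28, adjusted p = 0.00663) and was higher in 8 of 8 pairs, and Fen1, the flap nuclease, rose (0.79 ± 0.23, adjusted p = 0.0462) with both day 14 pairs lower at the wound.

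Of the 5 genes of nucleotide supply, Rrm1, Rrm2 and Tk1 rose over the mean, and Rrm1 and Tk1 also at day 4. Tk1, which salvages thymidine and is known for its rise in S phase, went from 20.1 to 17.2 CPM in the day 1 females and from 7.38 to 8.71 in the males. It went from 4.83 to 66.8 CPM in the day 4 females, from 8.34 to 30.9 in the males, from 7.90 to 30.6 in the day 7 females and from 13.7 to 43.9 in the males. At day 14 it went from 6.70 to 11.2 CPM in females and from 6.66 to 7.71 in males. The injured and non-injured sides thus lay close together at day 1, apart at days 4 and 7, and close again at day 14. Its log2 ratio was 0.00 at day 1 and 2.86 ± 0.56 at day 4 (edgeR, adjusted p = 0.0404), and 1.28 ± 0.27 over the mean (adjusted p = 0.0116). The step from day 1 to day 4 was 2.87 ± 0.76, with an unadjusted p of 0.004 that did not survive adjustment over all genes (0.94).

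Rrm1, the large subunit of ribonucleotide reductase, went from 62.8 to 109.7 CPM in the day 1 females, from 32.3 to 57.3 in the males, from 31.6 to 182 in the day 4 females and from 11.4 to 35.2 in the males. It went from 27.5 to 70.5 CPM in the day 7 females, from 29.9 to 107 in the males, from 36.7 to 42.0 in the day 14 females and from 24.9 to 22.0 in the males. The wound was higher in 7 of 8 pairs, and the ratio was 2.10 ± 0.41 at day 4 (edgeR, adjusted p = 0.039) and 1.13 ± 0.20 over the mean (adjusted p = 0.00496), against 0.39 in TPM (limma, adjusted p = 0.174). Rrm2, the small subunit, rose over the mean by 1.79 ± 0.50 and had the highest ratio of any pair, 5.22 in the day 4 females, from 1.76 to 101.8 CPM. Its mean was 1.20 without that pair and 2.48 without the day 4 males. Tyms, thymidylate synthase, had 6.75 to 58.1 CPM (median 15.8) on the non-injured and 17.7 to 59.0 CPM (median 24.9) on the injured side, ranges that nearly coincide, and did not pass (0.62 ± 0.30, adjusted p = 0.213). Without the day 14 female pair, in which it was 58.1 against 22.6 CPM, it was called at 0.98 (adjusted p = 0.0238). Dut, which keeps uracil out of DNA, did not pass (0.92 ± 0.39).

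The 3 chromatin-copying genes all rose over the mean, with a median log2 ratio of 1.68. Chaf1b, a subunit of the factor that places histones behind the fork, went from 7.89 to 33.0 CPM in the day 1 females, from 4.06 to 16.8 in the males, from 0.922 to 28.6 in the day 4 females and from 1.86 to 10.03 in the males. It went from 2.36 to 26.1 CPM in the day 7 females, from 2.39 to 12.6 in the males, from 0 to 0.471 in the day 14 females and from 0.930 to 5.43 in the males. Every injured library of days 1, 4 and 7 lay above every non-injured library, as for Mcm6. The ratio was 3.80 ± 0.72 at day 4 (edgeR, adjusted p = 0.0363) and 2.87 ± 0.38 over the mean (adjusted p = 0.00145), which was called in 17 of 17 alternative settings and came to 3.93 without the day 14 male pair. Uhrf1, which brings the maintenance methyltransferase to newly copied DNA, had 0 to 26.9 CPM (median 6.40) on the non-injured and 0.510 to 87.0 CPM (median 22.8) on the injured side. The ranges overlap, the day 4 females gave the widest pair (2.29 to 87.0 CPM), and the mean ratio of 1.68 ± 0.44 (adjusted p = 0.0257) was called in 9 of 17 alternative settings. It moved to 3.38 without the day 14 male pair (adjusted p = 0.121). Chaf1a rose with an adjusted p just under the threshold (1.39 ± 0.42), was called in 5 of 17 settings and was at -0.28 without the day 14 male pair.

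The cyclin E genes gave 1 call. Ccne2 had 1.496 to 28.0 CPM (median 4.92) on the non-injured and 5.33 to 41.1 CPM (median 14.3) on the injured side, and rose over the mean (1.48 ± 0.34, edgeR adjusted p = 0.0172). Its highest non-injured level, 28.0 CPM, was the day 14 female library, and it was lower at the wound in both day 14 pairs. Ccne1 had 0.041 to 10.7 CPM (median 3.62) on the non-injured and 0.824 to 34.9 CPM (median 17.2) on the injured side, with a mean ratio of 1.45 ± 0.50 that was not called (adjusted p = 0.0804), though it was with the day 14 libraries left out (1.98, adjusted p = 0.0257).

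**Figure D3:**
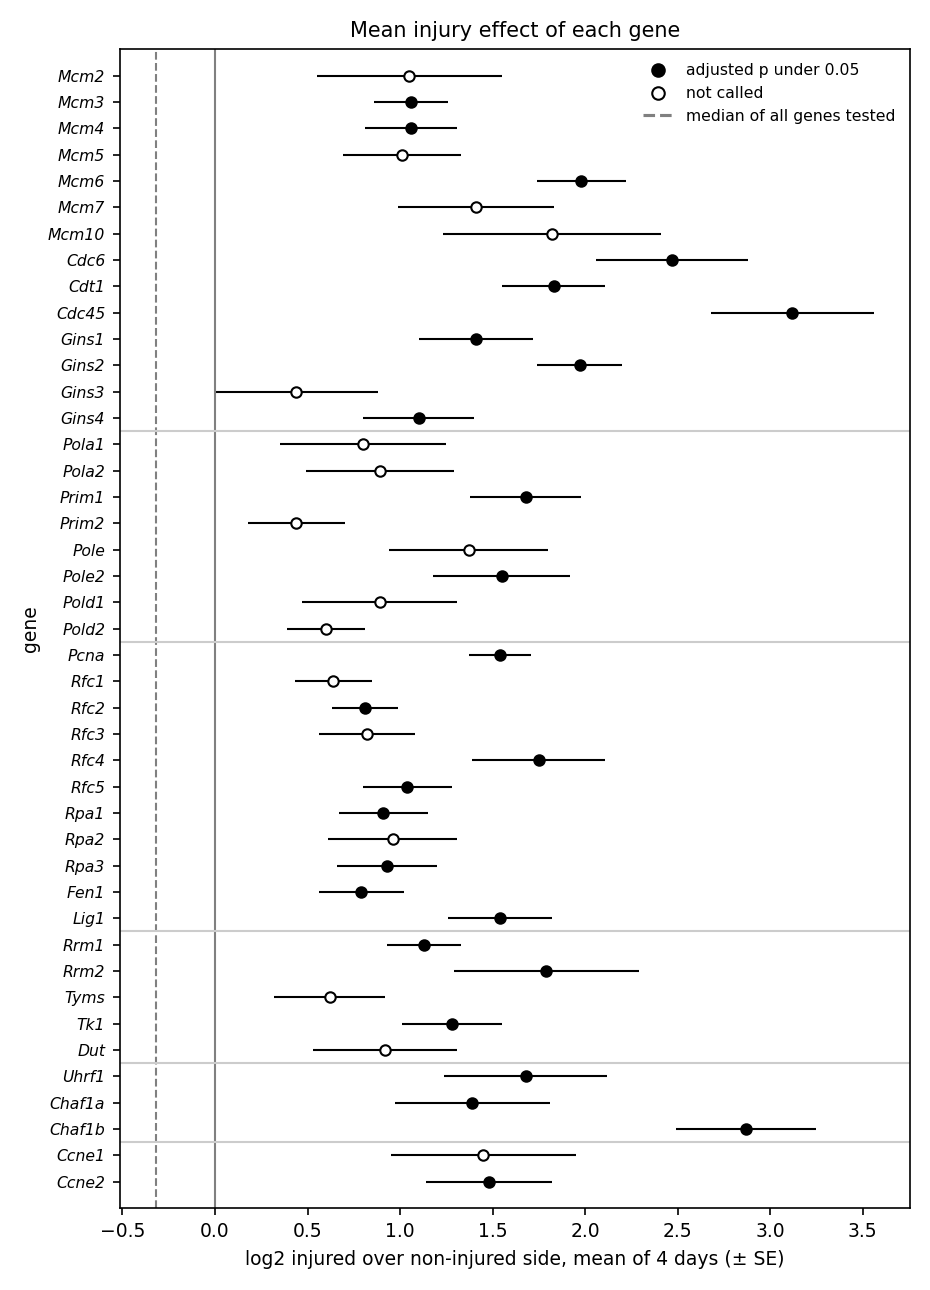
Log2 ratio of the injured over the non-injured side averaged over the 4 days (x axis, point ± SE of the edgeR fit over 8 pairs) for each of the 43 genes (y axis, grouped by role in the order of the text). Filled points have an adjusted p under 0.05 (26 genes), open points do not (17), and the dashed line is the median of all genes tested, -0.32.

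The fitted ratio was largest at day 4 in 26 of the 43 genes, at day 14 in 8, at day 7 in 5 and at day 1 in 4, while over all genes tested day 4 was the largest in 18.2% and day 14 in 34.5%. Day 14 gave the smallest ratio in 26 members and day 1 in 16. No difference between days was called by edgeR on the summed libraries. Tested over all 4 days, it called 0 of 43 (0% of all genes), with 10 at an unadjusted p under 0.05, 2 called by DESeq2 (Cdc45 and Mcm5) and 0 by limma. The step from day 1 to day 4 called 0 (0%), with 4 at an unadjusted p under 0.05, all larger at day 4 (Cdc6, Pole, Rrm1 and Tk1), and 0 by DESeq2 and limma. Its median was 0.66 beside 0.02 over all genes. Between days 4 and 7 edgeR called 0 (0%), with 0 at an unadjusted p under 0.05 and 0 by DESeq2 and limma. From day 7 to day 14 it called 0 (0%), with 12 at an unadjusted p under 0.05, of which 11 were smaller at day 14, and 0 by limma. DESeq2 called 2, Mcm5 smaller at day 14 (-3.69) and Cdc45 larger (5.82). The median was -1.18, beside 0.45 over all genes.

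**Figure D4:**
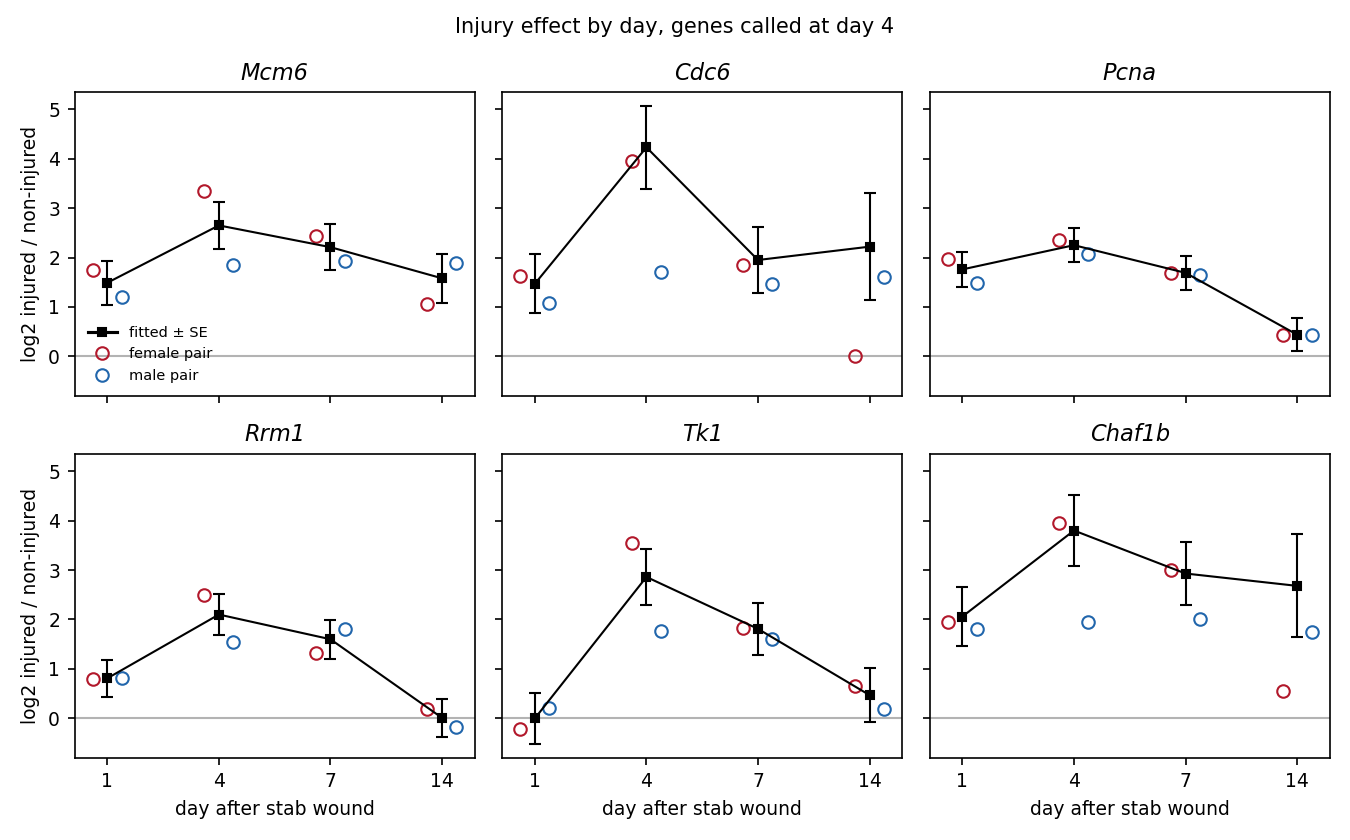
Log2 ratio of the injured over the non-injured side (y axis) by day (x axis) for the 6 genes called at day 4. Black squares are the fitted day effects ± SE, circles the female (red) and male (blue) pair computed on CPM + 1, which holds the circles of low genes such as Cdc6 nearer to 0; Pcna, Rrm1 and Tk1 come near 0 at day 14, and Tk1 also at day 1.

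Females and males were compared over the 4 days in 1 term. At day 4, 40 of the 43 genes had the larger ratio in the female pair, with a median of 2.34 against 1.13 in males, beside -0.04 and 0.00 over all genes tested. At days 1, 7 and 14 it was 28, 29 and 20 genes. How many of all genes had the larger female ratio was not worked out, so these counts are not read as particular to the 43. In TPM the summed day 4 ratios lay close together, at 2.52 in females and 2.41 in males, against 4.87 and 2.17 in CPM. The non-injured male library of day 4 carried 25.7% mitochondrial counts, against 0.697% to 7.55% in the other 15, and the 7 neuron markers summed to 2734 CPM in it, against 48.6 to 636 in the other non-injured libraries. In the injured female library of day 4 the monocyte markers summed to 2122 CPM, against 183 to 751 in the other injured libraries. Fn1 alone made up 1849 CPM of that sum, and Ccr2 and Ly6c2 reached at most 109.5 and 83.0 CPM in any injured library. The part of these cells in the day 4 ratios was not tested. The difference between the sexes was called for 0 of 43 genes (0% of all genes; edgeR), with 6 at an unadjusted p under 0.05, all larger in females (Mcm7, Rpa1, Rpa2, Lig1, Rrm2 and Ccne1), and 0 called by DESeq2 and limma. For a single day the sexes have 1 pair each and were not tested.

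Of 80 other genes of replication and of the G1 to S step, 79 were tested, and over the mean of the 4 days 27 rose and 1 fell, with a median log2 ratio of 0.88. Over all genes tested 7.76% were called higher and 7.96% lower, with a median of -0.32. Among 16 genes of origin licensing and firing 3 rose, Gmnn, the inhibitor of Cdt1 (1.95 ± 0.41, edgeR adjusted p = 0.0125), Orc3 (0.87 ± 0.23) and Ticrr (1.87 ± 0.49). Among 15 genes of the fork and the lagging strand 6 rose, with Dna2, a nuclease of fragment processing (1.83 ± 0.38), Pold3 (1.02 ± 0.21) and Rnaseh2a (1.04 ± 0.24) at the smallest p. Among 12 further genes of nucleotide supply 7 rose, and Mthfd2, a mitochondrial folate enzyme, was the only gene of the 80 called at day 1 (2.32 ± 0.41, edgeR adjusted p = 0.0395), from 22.7 to 100.4 CPM in females and from 13.7 to 77.8 CPM in males. Of all genes tested 0.472% were called higher at day 1. Nme1 (1.53 ± 0.27) and Umps (0.91 ± 0.18) also rose over the mean. Among 8 genes of chromatin copying 4 rose, with Hat1, a histone acetyltransferase (1.38 ± 0.21, adjusted p = 0.00269), Hells (1.70 ± 0.30) and Asf1b (1.93 ± 0.40) at the smallest p.

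The 28 genes tested that set the G1 to S step gave 7 higher and 1 lower call over the mean. Of all genes tested 7.76% were called higher and 7.96% lower. Cdk4, the kinase of D-type cyclins, was higher in 8 of 8 pairs, at 50.1 to 83.3 CPM on the non-injured and 59.4 to 246 CPM on the injured side (1.10 ± 0.17, edgeR adjusted p = 0.0033), and Ccnd1 (1.03 ± 0.19) and Tfdp1, the partner of E2F factors (1.10 ± 0.23), rose. The others named here were picked after their values were seen. E2f2 rose (1.39 ± 0.34) and so did E2f1 (2.86 ± 0.62, adjusted p = 0.0165), but E2f1 was at 0 on both sides in the day 14 females and at 0.120 CPM in the non-injured day 14 males, so that its size is uncertain. Cdkn1c, an inhibitor of cyclin kinases, fell by 2.04 ± 0.51 on the log2 scale (edgeR, adjusted p = 0.0188). It had 0.870 to 9.74 CPM on the non-injured and 0.0729 to 4.16 CPM on the injured side, with 7 of 8 pairs lower at the wound. Other inhibitors of the list did not move with it. Cdkn1a, Cdkn2c and Cdkn2d were each higher at the wound in 7 of 8 pairs, Cdkn2b in 5, and Cdkn1b and Cdkn2a in 3. Cdkn1a was also far more abundant, at up to 1499 CPM in the injured day 1 females.

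The 20 mitosis genes, which act after S phase, gave 7 higher calls over the mean (median 1.28), with Cdk1, the mitotic kinase (2.26 ± 0.39, edgeR adjusted p = 0.00505), Birc5 (2.12 ± 0.46) and Aurka (1.59 ± 0.41) at the smallest p. Of all genes tested 7.76% were called higher. At day 1 none had an unadjusted p under 0.05 (0 of 20, median 0.61), where 15 of the 43 replication genes had. At day 7 it was 18 of 20 (median 2.23), against 29 of 43 (median 1.61), and at day 4 it was 10 of 20 (median 1.96), against 31 of 43 (median 2.10). The share of all genes at an unadjusted p under 0.05 was not worked out. The summed mitosis level was 1.32 and 1.71 times higher at the wound in the female and male pair of day 1, where the replication sum was 2.20 and 1.94 times higher, and 5.68 and 4.08 times higher at day 7, where the replication sum was 2.96 and 2.57 times higher. At day 4 the mitosis sum was 11.8 times higher in females, the largest ratio of any pair, and 1.21 times higher in males. At day 14 it was 2.03 times higher in females and lower at the wound in males (0.828). The difference in timing between the lists was not tested.

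The authors' deposited table of each day, made with its own comparison of the same columns, gives 21 of the 43 genes an adjusted p under 0.05 with a higher value at the wound at day 1, beside 2.88% of all 55385 genes in that table. This base includes the genes that failed the low-count filter here, which all 43 members passed. Its shares are therefore not on the same base as those over the 28597 genes tested. In the authors' deposited tables the count is 25 at day 4 (2.42%), 18 at day 7 (1.97%) and 9 at day 14 (3.34%), and 2 members, Mcm5 and Rfc3, are lower at day 14. For Tk1 the authors' deposited tables give a log2 fold change of -0.06 at day 1, 2.52 at day 4 and 1.41 at day 7. The labels do not give the model behind these tables, and they rest on the same libraries as the fits above, so they add no independent samples.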

How the data were processed

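EYFP-positive microglia were profiled with SMART-Seq v4 cDNA and Nextera XT libraries, per the labels' protocols, so strand is not kept. Salmon (1.0.0) and DESeq2 (1.26.0) are named in the processing notes of the submitters. For the genome build, the sources used here give no name. The authors deposited expected counts (estimated reads per gene, not normalized), TPM values, and comparison tables with a log2 fold change and an adjusted p-value, per the file headers. Symbols came from those tables, matched by gene ID.

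Here the 2 columns of each day, sex and side were summed and rounded to 16 libraries of 20863982 to 55378788 counts. Genes were kept by filterByExpr (minimum count 10, day by side). A model with 8 pair means and 4 day effects of injury, leaving 4 residual degrees of freedom, was fitted with edgeR 4.0.16 (TMM, glmQLFit without a separate dispersion step, quasi-likelihood F test, prior degrees of freedom 5.32). Benjamini-Hochberg adjustment ran over all 28597 genes, and a call means an adjusted p under 0.05. The version with a trended dispersion estimated first had been seen when this one was chosen, after the processing of an earlier analysis, and is an added alternative. The fitting code was tested on simulated data. DESeq2 1.42.0 and limma 3.58.1 on log2(TPM + 1) were alternatives, as were other scaling, no filter, no pair block, the columns as separate samples and each pair left out. Pair ratios used CPM + 1. A sequencing depth this high leaves the spread between pairs, not counting error, as the main limit for all but the genes near 0.

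Values in every library were printed for the 2 members of each role with the highest mean CPM (not corrected for length) and for up to 3 members per test with the largest change among those called at 1 CPM or more; other lists name up to 3 genes per test by smallest p. Cdkn2a of the G1 to S list failed the filter. The members and lists were chosen with earlier results of these data known.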

Additional observations from a re-analysis of the deposited data

Results flagged for a closer look

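In each of the 43 genes the 8 pair ratios were searched for a highest or lowest pair that stands apart from the others by Dixon's criterion, which chance meets in about 1 of 20 groups. It was met in 7 genes, 5 of them through the day 14 females and 2 through the day 4 females.

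In the day 14 female pair Mcm2 had a log2 ratio of -3.57 against 0.27 to 3.43 in the other pairs, Pola1 -3.64 against 0.07 to 2.03, and Tyms -1.32 against 0.33 to 1.33. In the same pair Gins4 had 2.97 against 0.33 to 1.34, and Pola2 3.24 against -0.17 to 1.07. These are pairs with a library near 0 in part: Mcm2 had 264 counts on the non-injured and 0 on the injured side, and Pola1 16.9 against 0.432 CPM.

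In the day 4 female pair Cdc6 had a log2 ratio of 3.96 against 0.00 to 1.84 in the other pairs, and Uhrf1 had 4.74 against 0.06 to 2.05.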

How the results depend on the processing

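All counts are of the 43 genes, in the order day 1, day 4, day 7, day 14 and mean of the 4 days, where edgeR called 0, 6, 0, 0 and 26. The share of all genes called was not worked out for the other settings. With the 32 columns as separate samples it called 33, 40, 38, 21 and 42, and 31 for a difference between the 4 days, 15 for day 4 minus day 1, 4 for day 7 minus day 4, 21 for day 14 minus day 7 and 15 for females minus males, where the main counts were 0. With a replicate block on these columns the counts were 29, 34, 34, 18 and 42, and 23, 6, 0, 17 and 9 for the same 5 differences. Columns of the same replicate number did not deviate together (correlation -0.0132 to 0.0410 in the 8 pairs). Since the 2 columns of a group differ by little more than counting noise, this cannot show whether columns of the same number share an origin. DESeq2 called 8, 21, 6, 14 and 30, with 2 for a difference between the 4 days and 2 for day 14 minus day 7. limma on log2(TPM + 1) called 1, 5, 0, 1 and 11. Median-ratio size factors gave 1 at day 1 and 23 over the mean, no low-count filter gave 1 at day 4, and a fit with no pair block gave 0 at day 4 and 9 over the mean. Added after seeing the data, a trended dispersion estimated first gave 2, 15, 7, 7 and 30, with 2 for a difference between the 4 days and 2 for day 14 minus day 7.

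Leaving out each pair in turn, where the day's other pair is assumed to vary like the rest, gave 0 to 2 calls at day 1, 0 to 7 at day 4, 0 to 5 at day 7 and 7 to 32 over the mean. Of the single-gene values 7 lay on the other side of 0. 1 was of a called gene, Chaf1a at -0.28 without the day 14 male pair, the lowest of -0.28 to 1.69 over the pairs left out; the cause was not tested. The other 6 were not called in either fit: Gins3 (-0.01), Prim2 (-0.03) and Rfc1 (-0.05) by limma on TPM, Mcm2 (-1.49) and Pola1 (-0.07) without the day 14 male pair, and Pold1 at day 4 (-0.31) without the day 4 female pair. Of the others 703 values kept their side of the threshold, 174 lost a call and 93 gained one. The 26 genes called over the mean stayed above 0 in every setting run, apart from that value of Chaf1a.

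Scaling moved the median of all genes: by -0.28 at day 4, -0.40 at day 7 and -0.12 over the mean with median-ratio size factors, and by 0.11, 0.39 and 0.15 in TPM. Above that median lay 43 members at days 4 and 7 and over the mean with the first, and 42, 40 and 43 in TPM. In the day 14 females 13 members were under 1 CPM in the non-injured and 9 in the injured library. These libraries held 33306008 and 35794953 counts, so depth does not set them apart, but only 14777 and 14737 detected genes.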
